A study of Mus musculus with 6 samples.

Results

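Glycolysis and the pentose phosphate pathway were followed here through 32 genes, all of them among the 40773 gene symbols of the count table. They were chosen by name, from uptake of glucose to export of lactate and the side branch that makes pentoses. The 6 libraries are of RAW264.7, a line of mouse macrophages. In 3 of them the cells had been given lipopolysaccharide (LPS, the bacterial outer membrane lipid sensed by Toll-like receptor 4) at 100 ng/mL for 24 h. In the other 3 the same LPS dose and time were combined with 3A2, an antibody that neutralizes the membrane metalloproteinase MMP14, at 50 µg/mL. Both groups therefore carry LPS, the genotype label of both is plain, and cells without LPS or with a control antibody were not analysed here. The comparison asks which transcripts differ when 3A2 is added to LPS-treated macrophages. Without a control antibody, neutralization of MMP14 cannot be told apart from the addition of an antibody. A single cell line was used, and the labels call the replicates biological triplicates.

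Glycolysis splits glucose into pyruvate in a preparatory phase that spends ATP and a payoff phase that regains it, and lactate dehydrogenase then turns pyruvate into lactate, which leaves the cell through monocarboxylate transporters. The pentose phosphate pathway branches off at glucose phosphate. Its oxidative arm makes NADPH, and its non-oxidative arm exchanges sugar phosphates with glycolysis. Macrophages activated by LPS are known for high glucose uptake and lactate release, which rest in part on the transcription factor HIF-1, and for using NADPH to make reactive oxygen and nitric oxide.

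Libraries held 6060732 to 7432553 counts, and 2.57% to 3.03% of these fell on the 32 genes. Values are given as CPM (counts of a gene relative to the library total, scaled by the trimmed mean of M-values, TMM), and levels of different genes are compared as CPM per kb of transcript, apart from isoenzyme shares of summed counts. Markers of macrophages were all detected, 8 of 8, with a summed level of 7169 to 7244 CPM with LPS and 6241 to 6679 CPM with 3A2, and their part in the values below was not tested. Of the 8, 1 gene alone averaged 4058 CPM over the 6 libraries, so the sum rests largely on it. Epithelial markers were at 0 counts in all libraries (4 of 4), lymphocyte markers summed to at most 0.669 CPM, fibroblast markers to at most 0.439 CPM and neutrophil markers to 5.70 to 7.47 CPM, with S100a9 and Ly6g at 0 counts. In bulk RNA, a smaller fraction of cells carrying a transcript and less of it per cell cannot be told apart. Mmp14 mRNA itself had 1, 5 and 0 counts with LPS and 2, 6 and 3 with 3A2.

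Levels along the pathway spanned more than 3 orders of magnitude and lay close together in both groups. Pkm, the pyruvate kinase gene, stood highest at 3841 to 4671 CPM per kb over the 6 libraries, and supplied 35.9% to 37.9% of the summed CPM of the 32 genes. Gapdh followed at 1979 to 2529 and the aldolase gene Aldoa at 1323 to 1651 CPM per kb, and these ranges did not overlap. Eno1 (1029 to 1199 CPM per kb) and Ldha (995 to 1029.5) overlapped only at their edge, and Pgk1 (916 to 984) lay below Ldha. Eno1 is ranked here without its near-identical copy Eno1b, which took 30.3% to 31.9% of their summed counts. The place of Eno1 beside Aldoa and Ldha therefore depends on how reads were assigned to the copies. Behind Pgam1, Tpi1 and Gpi1, the glucose transporter Slc2a1 reached a median of 147 CPM per kb, above each hexokinase gene (Hk1 83.5, Hk3 33.3, Hk2 33.3). At the low end were Pfkm (11), Rpia (9.97), Slc2a3 (4.83) and Pfkfb4 (3.68). With the union of annotated exons as length, the ranks of Pkm, Gapdh and Aldoa and of these 4 low genes were the same. Gapdh and Aldoa were then close, at medians of 803 and 795 CPM per kb. Pgls moved from rank 19 to 27, Pfkp from 11 to 16 and G6pdx from 16 to 11. Slc16a3 moved from 17 to 12 and Eno1 from 4 to 7. By that length Pgk1 (rank 4) stood above Ldha (rank 5), and Slc2a1 (rank 9) above Gpi1 (rank 10).

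**Figure D1:**
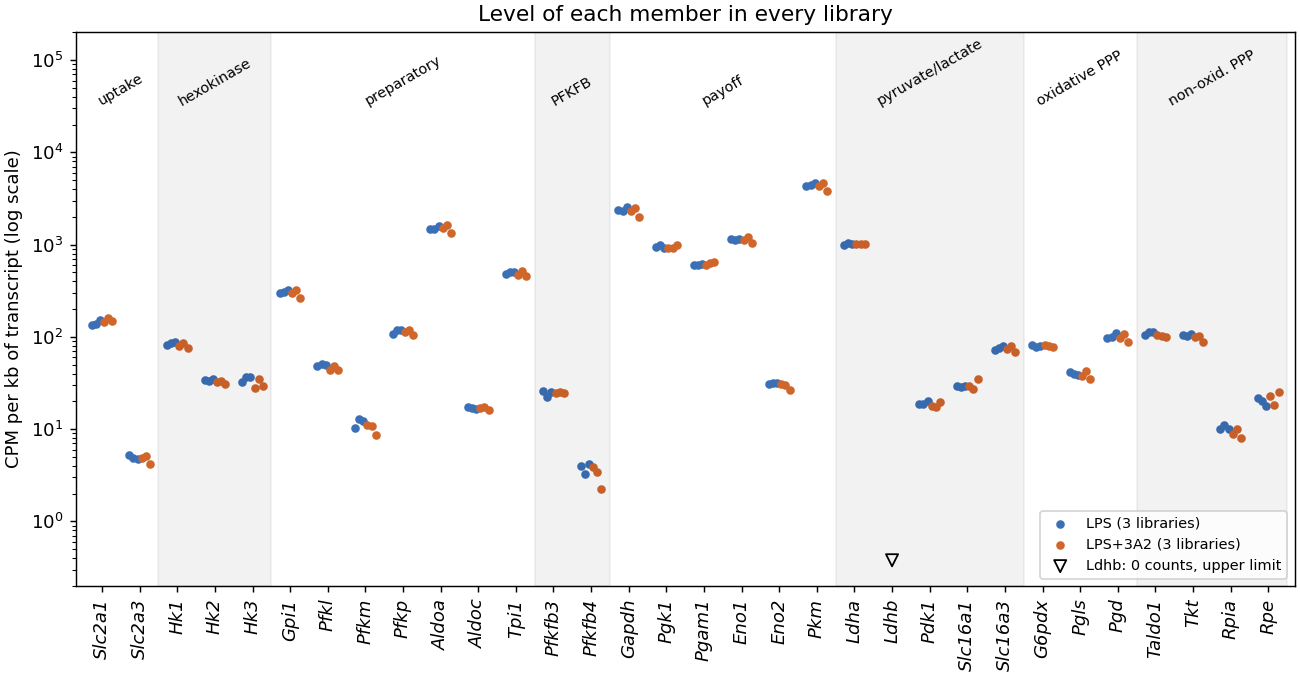
Level of each of the 32 genes as CPM per kb of transcript on a log axis, 1 point per library, ordered by role in the pathway. Pkm and Gapdh are highest, Ldhb has 0 counts and is drawn at the upper limit that 0 counts allow, and blue (LPS) and orange (LPS+3A2) points of a gene lie close together.

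Ldhb, the heart-type subunit of lactate dehydrogenase, had 0 counts in all 6 libraries. A count of 0, taken to allow 3 counts, limits its level to 0.404 to 0.495 CPM in a library, for counting error only. Ldha, the muscle-type subunit, was at least 2668-fold higher per kb than this limit in every library. No annotated gene overlaps the position of the Ldhb exons in GENCODE M21, but a processed pseudogene elsewhere, Gm5514, is 98.0% identical over 1002 bases and is not in the table. The germ-cell gene Ldhc also had 0 counts, and Ldhal6b had 0 to 8 counts in a library, so nearly all lactate dehydrogenase mRNA counted in either group was that of Ldha.

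None of the 32 genes differed between the groups past the threshold. Of 31 that passed the filter on low counts (all but Ldhb), 0 were called at a Benjamini-Hochberg adjusted p under 0.05 by edgeR's quasi-likelihood test, where 0% of the 11498 genes tested were called, and DESeq2 and limma-voom called 0 of them as well. At an unadjusted p under 0.05 there was 1, lower, and 0 higher, where 6.51% of all genes tested passed that level, 3.09% lower and 3.43% higher. The fold changes lay between 0.845 and 1.11. They were bounded closely: the 95% interval lay within 1.25-fold in either direction for 25 of 31 genes (42.8% of all genes tested), within 1.5-fold for 30 (79.6%) and within 2-fold for all 31 (94.1%). The genes tested were not matched to these 31 for counts, on which the width of an interval depends. On the log2 scale 24 of 31 lay below 0 and 7 above, with a median of -0.05, where 49.6% of all genes tested lay below 0 with a median of 0.0017. All 3 libraries with 3A2 lay below all 3 with LPS for 4 of 31 genes (6.46% of all genes tested) and above them for 0 (5.84%).

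**Figure D2:**
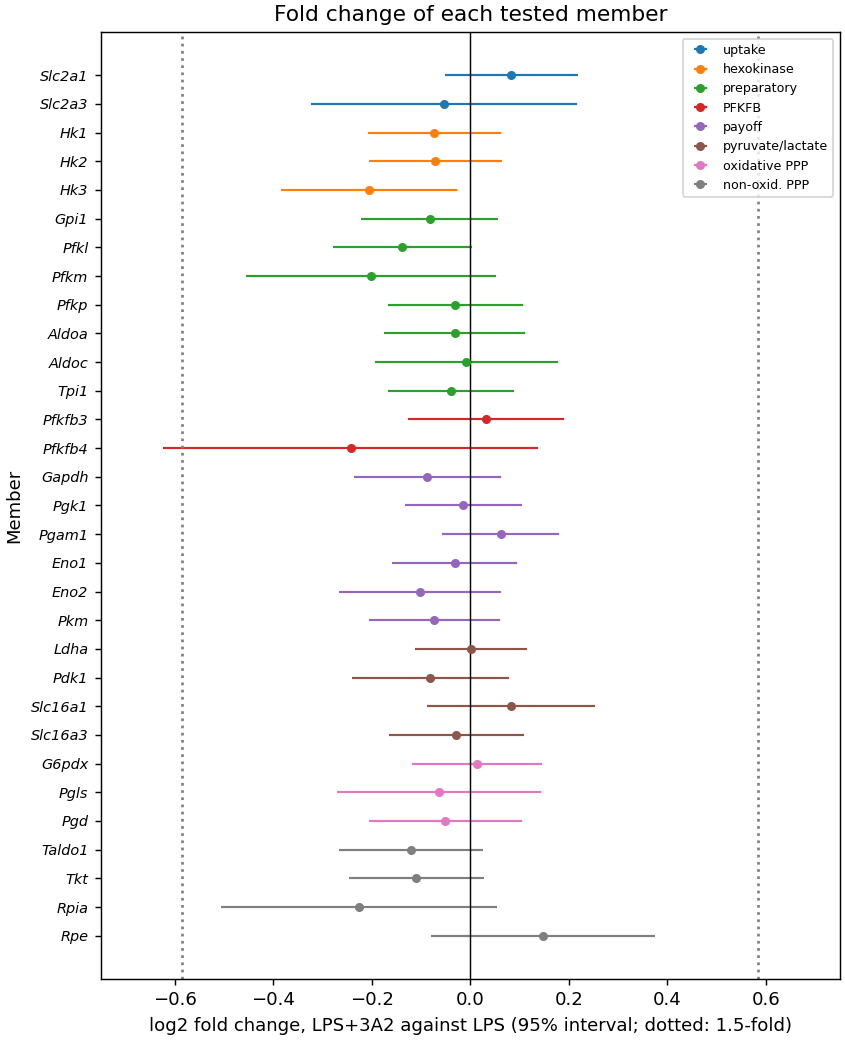
Log2 fold change of each of the 31 tested genes, LPS+3A2 against LPS, with its 95% interval from edgeR, coloured by role; dotted lines mark 1.5-fold. The interval of 30 genes lies inside those lines, and only that of Pfkfb4 crosses one.

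Of the 2 glucose transporter genes 1 lay above 0 and 1 below, and the 3 hexokinase genes lay below 0, none called. Slc2a1, which encodes GLUT1, the transporter for basal glucose uptake, measured 444, 452 and 500.2 CPM with LPS and 475, 520.1 and 483 CPM with 3A2. Its groups overlapped, and the difference was 1.06-fold (95% interval 0.965 to 1.16; edgeR adjusted p = 0.831). Slc2a3, which encodes the high-affinity transporter GLUT3, measured 20.7, 19.1 and 18.6 CPM with LPS and 19.1, 20.3 and 16.7 CPM with 3A2, or 0.964-fold (0.799 to 1.16). Hk3, a hexokinase of myeloid cells, had the smallest p-value of the 31 genes and measured 104, 119 and 119 CPM with LPS and 90.7, 111 and 93.7 CPM with 3A2. LPS+3A2 replicates 1 and 3 were low, while replicate 2 lay within the LPS range. Hk3 stood at 0.867-fold (95% interval 0.766 to 0.981; edgeR adjusted p = 0.734), with an unadjusted p of 0.0256. Without LPS+3A2 replicate 2 its edgeR adjusted p was 0.0918, the lowest of any of these genes in any fit, and over all fits it ran up to 0.999. Hk1, the widely expressed hexokinase, measured 347, 368 and 374 CPM with LPS and 343, 368 and 324 CPM with 3A2, or 0.951-fold (0.866 to 1.04), and Hk2, the inducible form that HIF-1 is known to raise, measured 187, 183 and 193 CPM with LPS and 181, 184 and 172 CPM with 3A2, or 0.952-fold (0.867 to 1.05).

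The preparatory steps lay below 0 in 7 of 7 genes, the median being -0.04 (log2) and no gene called. Without LPS+3A2 replicate 3 it was 3 of 7, with Pfkp, Aldoa, Aldoc and Tpi1 above 0. Pfkl encodes the liver-type subunit of phosphofructokinase, the committing step of glycolysis, and measured 180.2, 190.1 and 184 CPM with LPS and 163, 179 and 161 CPM with 3A2. All 3 libraries with 3A2 were below the LPS libraries, replicate 2 by only about 1 CPM, and the difference was 0.909-fold (95% interval 0.824 to 1.00; edgeR adjusted p = 0.748). Pfkp, the platelet-type subunit, measured 441, 491 and 487 CPM with LPS and 464, 492 and 433 CPM with 3A2 and stood at 0.979-fold (0.890 to 1.08). Pfkm, the muscle type, measured 29.4, 36.9 and 35.2 CPM with LPS and 32.1, 31.4 and 24.7 CPM with 3A2, or 0.870-fold (0.729 to 1.04), with LPS+3A2 replicate 3 lowest. Aldoa, the main aldolase, measured 2309, 2297 and 2475 CPM with LPS and 2319.7, 2557 and 2049 CPM with 3A2, and its libraries with 3A2 included both the highest and the lowest of the 6, a difference of 0.978-fold (95% interval 0.885 to 1.08; edgeR adjusted p = 0.946). Gpi1, the isomerase that follows hexokinase, stood at 0.945-fold (0.858 to 1.04), Tpi1, triose phosphate isomerase, at 0.973-fold (0.891 to 1.06) and the brain-type aldolase Aldoc at 0.994-fold (0.874 to 1.13). PFKFB enzymes make and remove the sugar bisphosphate that activates phosphofructokinase. Pfkfb3, the form with high kinase activity, measured 124, 106 and 122 CPM with LPS and 119, 122 and 118 CPM with 3A2, a difference of 1.02-fold (95% interval 0.916 to 1.14; edgeR adjusted p = 0.950). Pfkfb4 measured 13.8, 11.5 and 14.6 CPM with LPS and 13.6, 12.0 and 7.85 CPM with 3A2, with LPS+3A2 replicate 3 far below the rest, or 0.845-fold (95% interval 0.649 to 1.10; edgeR adjusted p = 0.821).

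The payoff steps, which include Pkm and Gapdh, lay below 0 in 5 of 6 genes, none called. Pkm measured 10502, 10839.6 and 11359 CPM with LPS and 10439.7, 11305 and 9341 CPM with 3A2, so that LPS+3A2 replicate 2 was within the LPS range and replicate 3 was the lowest library, a difference of 0.951-fold (95% interval 0.866 to 1.04; edgeR adjusted p = 0.841). The table counts Pkm as a single gene, so its splice forms M1 and M2 cannot be told apart. Gapdh, often used as a reference gene, was also lowest in LPS+3A2 replicate 3, with 3347, 3287 and 3592 CPM with LPS and 3264, 3550.1 and 2811 CPM with 3A2, or 0.941-fold (0.849 to 1.04). Pgk1, the first ATP-making step, measured 1719, 1792 and 1686 CPM with LPS and 1679, 1672 and 1795 CPM with 3A2, or 0.990-fold (0.912 to 1.07). Pgam1, which moves the phosphate group within phosphoglycerate, measured 1057, 1069 and 1094 CPM with LPS and 1069.7, 1133 and 1159 CPM with 3A2, or 1.04-fold (0.962 to 1.13). In Pgk1 and Pgam1, LPS+3A2 replicate 3 was the highest of the 6 libraries, where in Gapdh, Pkm and Eno1 it was the lowest. For Pgk1 the margin was small, 1795 CPM against 1792 CPM in LPS replicate 2. Eno2, the neuronal enolase, measured 85.5, 88.8 and 88.1 CPM with LPS and 85.2, 85.1 and 74.1 CPM with 3A2, and all 3 libraries with 3A2 lay below those with LPS, a difference of 0.932-fold (95% interval 0.831 to 1.04; edgeR adjusted p = 0.831). Most of that distance came from LPS+3A2 replicate 3, the other libraries being within 4 CPM of each other.

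Enolase and Gapdh reads are shared with near-identical copies, which limits the counts of Eno1 and Gapdh. Eno1b, an intronless copy of Eno1, was counted as a gene of its own and took 30.3% to 31.9% of the summed Eno1 and Eno1b counts of a library. In GENCODE M21 the coding sequences of Eno1 and Eno1b, 1302 bases each without the stop codon, differ at 8 bases and encode proteins of 434 residues with 0 differences. The stretch from base 661 to 750 of the coding sequence holds 3 of these differences, and is shown because reads of the coding sequence can be assigned to one copy only at such bases. Capitals mark the bases that differ.

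Eno1: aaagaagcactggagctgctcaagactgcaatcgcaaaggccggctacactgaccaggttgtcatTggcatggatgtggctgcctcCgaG
Eno1b: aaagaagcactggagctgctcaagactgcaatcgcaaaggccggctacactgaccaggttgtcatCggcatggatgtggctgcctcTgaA

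Eno1 alone measured 2339.9, 2275 and 2355 CPM with LPS and 2302, 2430.2 and 2085 CPM with 3A2, a difference of 0.978-fold (95% interval 0.896 to 1.07; edgeR adjusted p = 0.937). Summed with Eno1b the ratio of the group means was 0.973, against 0.978 for Eno1 alone, so the assignment of reads moved the comparison little. For Gapdh, 76 annotated copies were at least 95% identical over 300 bases or more, and 3 of them are in the table. Of these, Gm12070, a processed pseudogene with 99.9% identity, held 7.4% to 8.08% of the summed counts. With Gm12070 added, the ratio of the Gapdh group means was 0.939, against 0.941 alone. Another 7 of the 32 genes have such copies in the annotation (Gpi1, Tpi1, Pgk1, Pgam1, Pkm, Ldha and Ldhb), none of which is in the table.

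Pyruvate and lactate genes lay on both sides of 0, with 2 above and 2 below. Ldha, which makes lactate from pyruvate, had the smallest difference of the 31 genes. It measured 1806, 1869 and 1854 CPM with LPS and 1823, 1853 and 1859.7 CPM with 3A2, a difference of 1.00-fold (95% interval 0.926 to 1.08; edgeR adjusted p = 0.996). Slc16a3, which encodes MCT4, the lactate exporter of glycolytic cells, measured 314, 326 and 341 CPM with LPS and 322, 341 and 298 CPM with 3A2, or 0.981-fold (0.892 to 1.08). Slc16a1, which encodes MCT1, measured 129, 125 and 131 CPM with LPS and 131, 122 and 156 CPM with 3A2, with LPS+3A2 replicate 3 high and the other 5 libraries within 10 CPM of each other, a difference of 1.06-fold (0.940 to 1.19). Pdk1, the kinase that holds back pyruvate dehydrogenase, measured 97.6, 97.8 and 106 CPM with LPS and 91.7, 91.0 and 102 CPM with 3A2. Its LPS+3A2 replicates 1 and 2 were below all LPS libraries and replicate 3 was within their range, and the difference was 0.945-fold (95% interval 0.846 to 1.06; edgeR adjusted p = 0.852).

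No gene was called in either arm of the pentose phosphate pathway. The oxidative arm had 2 of 3 genes below 0 and the non-oxidative arm 3 of 4, against 1 of 3 and 3 of 4 without LPS+3A2 replicate 3. In the oxidative arm G6pdx, the entry enzyme glucose phosphate dehydrogenase, measured 216, 205 and 209 CPM with LPS and 219, 209 and 207 CPM with 3A2, or 1.01-fold (0.922 to 1.11). Pgd, the dehydrogenase that makes the second NADPH, measured 215, 223 and 241 CPM with LPS and 217, 240.3 and 197 CPM with 3A2, a difference of 0.966-fold (95% interval 0.867 to 1.08; edgeR adjusted p = 0.912), and the lactonase Pgls stood at 0.957-fold (0.828 to 1.10). In the non-oxidative arm Taldo1, transaldolase, measured 130.4, 139.5 and 139.7 CPM with LPS and 129.7, 125 and 122 CPM with 3A2. Its groups did not overlap, by less than 1 CPM, and it stood at 0.920-fold (95% interval 0.832 to 1.02; edgeR adjusted p = 0.786). Tkt, transketolase, measured 336, 329.7 and 343 CPM with LPS and 318, 331 and 286 CPM with 3A2, with an overlap of LPS+3A2 replicate 2 with the LPS range, a difference of 0.927-fold (95% interval 0.843 to 1.02; edgeR adjusted p = 0.794). Rpia, the ribose phosphate isomerase, was scarce at 18.3, 20.2 and 18.6 CPM with LPS and 16.1, 18.2 and 14.5 CPM with 3A2, and its groups also failed to overlap by a small margin, a difference of 0.855-fold (95% interval 0.704 to 1.04; edgeR adjusted p = 0.791). Rpe, the ribulose phosphate epimerase, had the highest fold change of the 31 genes, at 1.11-fold (95% interval 0.946 to 1.30; edgeR adjusted p = 0.819). It measured 59.8, 55.0 and 48.5 CPM with LPS and 62.0, 50.2 and 69.1 CPM with 3A2, and the spread within each group covered the difference. Exons of Kansl1l on the opposite strand cover 17.9% of the Rpe exon sequence, those of Ikbkg 13.6% of G6pdx and those of Pitrm1 5.58% of Pfkp. The strand setting of the counting is not given in the sources used here, so reads of these pairs may be mixed. On the same strand, where no strand setting helps, exons of Fam129c cover 20.6% of Pgls. Those of Gm49759 cover 15.3% of Pkm and those of Gm26513 10.2% of Pfkm. None of these 3 names is among the symbols of the count table.

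Isoenzyme choice was measured as the share of each paralog in the summed counts of its family, which does not depend on the scaling of libraries. Shares can still carry the library differences with GC content described below. The transcripts of Pfkp and Pfkl have 48.9% and 57.1% GC, and the part of GC content in the shares was not tested. The groups did not overlap for Pfkp, at 68.4% ± 0.564 of phosphofructokinase counts with LPS and 70.1% ± 0.234 with 3A2 (SD, n = 3). Pfkl made up 26.7% ± 0.829 and 25.4% ± 0.667, also without overlap, and Pfkm 4.88% ± 0.319 and 4.44% ± 0.44. Shares of a family add up to the whole, so a higher share of Pfkp and a lower share of Pfkl are not independent results. Among the hexokinases Hk1 took 54.6% ± 0.244 with LPS and 55.4% ± 0.449 with 3A2, without overlap, Hk2 28.3% ± 1.02 and 28.8% ± 0.91, and Hk3 17.1% ± 0.785 and 15.8% ± 1.0. The exact two-sided permutation test gave p = 0.1 for Pfkp, Pfkl and Hk1, which is the smallest that 3 against 3 libraries allow, and an adjusted p of 0.367 over 11 shares tested. Divided by transcript length, Pfkl overlapped between groups (exact permutation p = 0.2), and Pfkp and Hk1 still did not. Slc2a1 held 96.0% ± 0.435 and 96.3% ± 0.28 of the transporter pair, Aldoa 98.0% ± 0.11 and 98.0% ± 0.135 of the aldolases, Eno1 96.4% ± 0.118 and 96.5% ± 0.096 of Eno1 with Eno2, and Pfkfb3 89.8% ± 0.466 and 91.5% ± 2.06 of the PFKFB pair. Slc16a3 held 71.8% ± 0.797 and 70.2% ± 4.06 of the lactate transporters, where LPS+3A2 replicate 3 was lowest at 65.7%. The difference of the group means was 1.75 percentage points for Pfkp and 1.68 for Pfkfb3 by counts, and 1.88 and 2.17 per kb.

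The share of genes below 0 depended on which libraries were included. LPS+3A2 replicate 3 had 24 of 31 genes below their mean over the 6 libraries, with a median of -0.13 on the log2 scale, and a summed level of 26036 CPM. LPS+3A2 replicate 2 and LPS replicate 3 stood on the other side. LPS+3A2 replicate 2 had 25 of 31 genes above their mean, with a median of 0.05. LPS replicate 3 had 23 of 31 above, a median of 0.07 and a summed level of 29965 CPM. The 5 libraries other than LPS+3A2 replicate 3 summed to 28094 to 30003 CPM. Without LPS+3A2 replicate 3 the genes were split, 18 below 0 and 13 above, with a median log2 fold change of -0.0034. Without LPS+3A2 replicate 2 instead, 24 lay below 0 with a median of -0.11, and again none was called. Without LPS replicate 3, 22 lay below 0 with a median of -0.04.

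**Figure D3:**
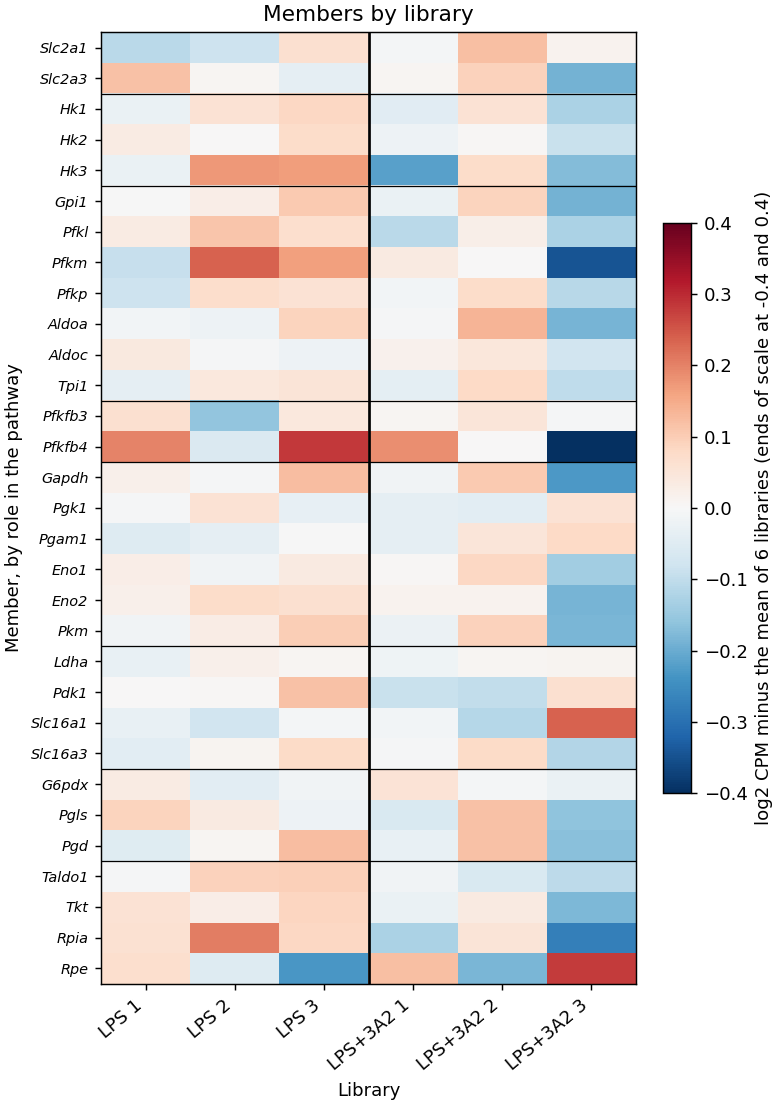
Log2 CPM of each tested gene minus its mean over the 6 libraries, libraries in columns and genes in rows by role; the scale ends at -0.4 and 0.4, so Pfkfb4 in LPS+3A2 replicate 3, at -0.61, is drawn at its end. LPS+3A2 replicate 3 is blue for 24 of 31 genes and red for 7, Rpe and Slc16a1 the most. LPS+3A2 replicate 2 is red for 25, and LPS replicate 3 for 23.

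These library differences went with the GC content of the transcripts. Across the 31 genes, Pearson's r between GC content and the position of a gene was 0.73 in LPS+3A2 replicate 2 and -0.61 in replicate 3, against -0.27 to 0.47 in the other 4 libraries. By rank (Spearman) the values were 0.54 and -0.57, against -0.17 to 0.44 in the other 4. These are descriptions across genes of single libraries, and genes are not independent replicates. Over all genes tested that have a GC value, 10868 in number and with extreme positions capped, Pearson's r was 0.32 and -0.52 in LPS+3A2 replicates 2 and 3. LPS replicate 3 was close to LPS+3A2 replicate 2 over these genes, with r = 0.31, and had 0.47 over the 31. Positions are relative to the mean of the 6 libraries, so a slope in 1 library shifts those of the others. The 31 genes have a median GC content of 53.7%, against 50.0% for all genes tested. Rpe and Slc16a1, the 2 genes highest in LPS+3A2 replicate 3, have the lowest GC content of the 31, 39.1% and 42.9%, while Pkm has 57.7%, Gapdh 56.6% and Aldoa 56.9%. The same library had a mean position of 0.45 for mitochondrial mRNAs and -0.13 for ribosomal protein mRNAs on the log2 scale, and their part in the result was not tested. With GC content fitted in each library, a correction chosen after the data were seen, 19 of 31 genes lay below 0, the median was -0.02, and 0 were called. Pkm then stood at a log2 fold change of -0.02 instead of -0.07, Gapdh at -0.04 instead of -0.09, Rpe at 0.04 instead of 0.15 and Hk3 at -0.15 instead of -0.21. Slc2a1 was slightly higher after it, at 0.12 instead of 0.08 on the log2 scale, with an edgeR adjusted p of 0.382.

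**Figure D4:**
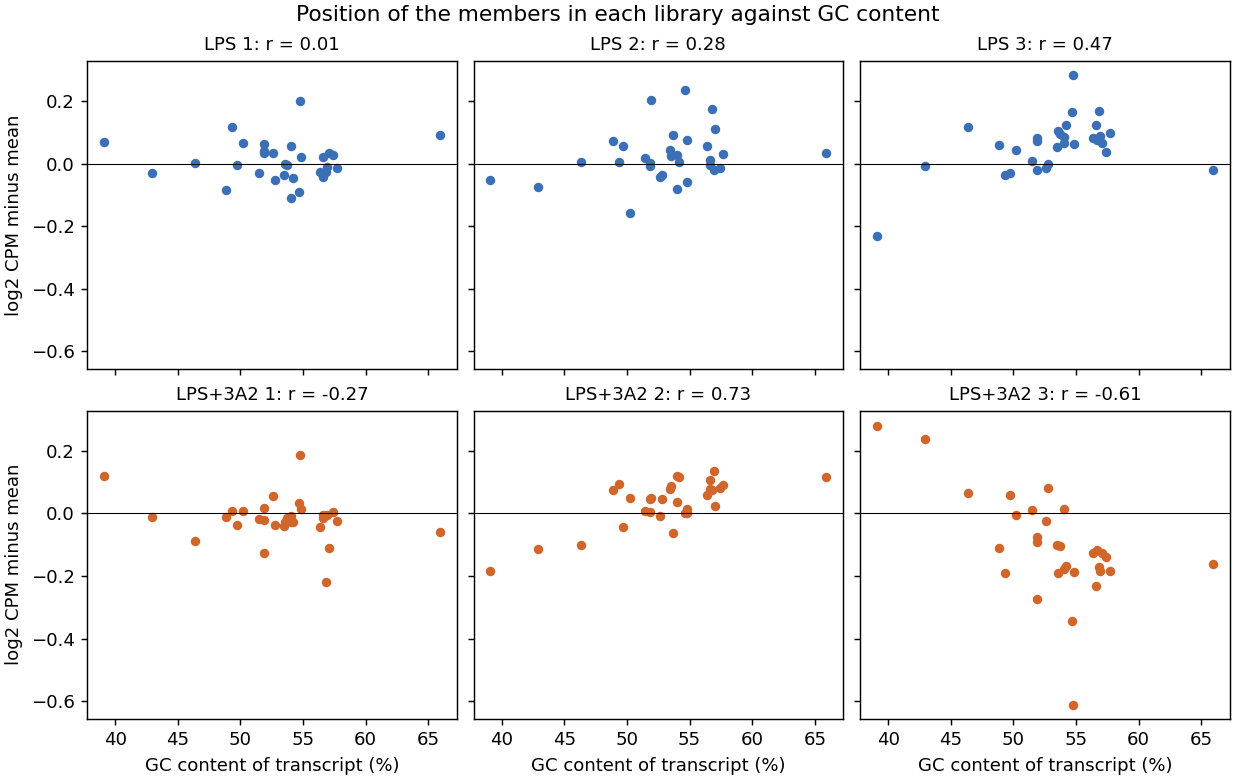
Position of each tested gene in a library (log2 CPM minus its mean over the 6 libraries) against the GC content of its transcript in percent, 1 panel per library and 1 point per gene. The points slope up in LPS+3A2 replicate 2 (r = 0.73) and in LPS replicate 3 (r = 0.47). They slope down in LPS+3A2 replicate 3 (r = -0.61).

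**Figure D5:**
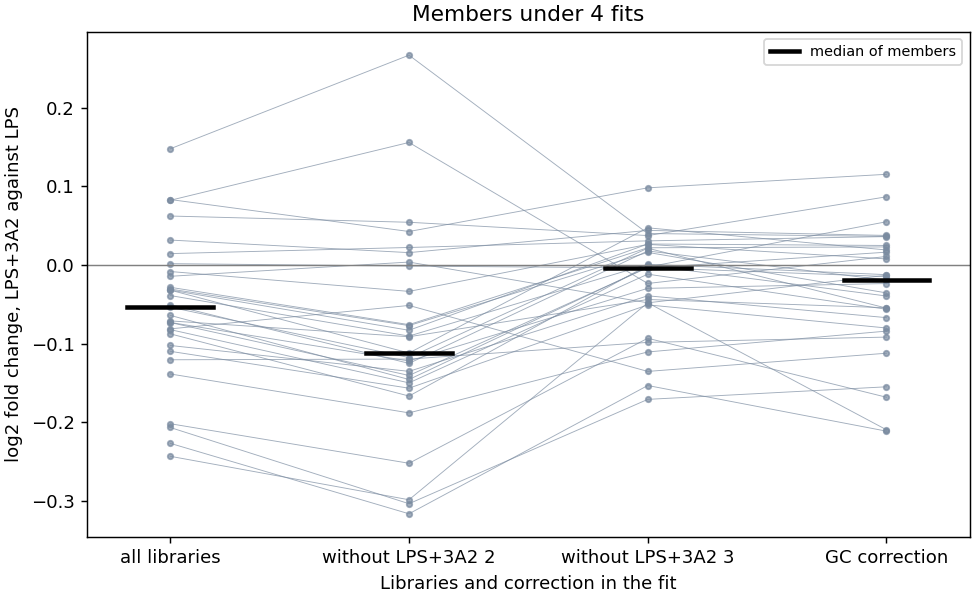
Log2 fold change of the 31 genes under 4 fits, 1 line per gene, with the median as a black bar. The median is -0.05 with all libraries, -0.11 without LPS+3A2 replicate 2, -0.0034 without LPS+3A2 replicate 3 and -0.02 with the GC correction.

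Promoters of the pathway are known for hypoxia response elements, which bind HIF-1 and whose core often reads ACGTG. Only this form of the core was searched for. RefSeq promoter windows (GRCm38.p6) were matched for 31 of the 32 genes by symbol. In the 250 bases before the start, ACGTG was found on either strand for 12 of 31 genes (38.7%). The share was 18.5% over 27025 symbols with a window, which were not matched for expression or GC content. A gene counted if any of its windows had a match, so genes with more windows had more places for a match. Overlapping matches, such as the CACGTG of an E-box read on both strands, were counted as 1 site. The windows of Slc2a1, Pgk1 and Ldha are shown, for uptake, payoff and lactate, since these carry 1, 2 and 3 sites. A further window of Ldha has 0 sites, and Aldoa, Pkm and Pfkm also have windows without a site. The windows shown are all on the + strand, and capitals mark the matches.

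Slc2a1, chr4:119108495-119108744: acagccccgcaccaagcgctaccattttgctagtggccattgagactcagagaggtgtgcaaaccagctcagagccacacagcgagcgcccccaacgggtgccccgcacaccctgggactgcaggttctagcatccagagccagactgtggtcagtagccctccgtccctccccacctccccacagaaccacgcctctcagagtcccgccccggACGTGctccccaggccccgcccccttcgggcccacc
Pgk1, chrX:106186850-106187099: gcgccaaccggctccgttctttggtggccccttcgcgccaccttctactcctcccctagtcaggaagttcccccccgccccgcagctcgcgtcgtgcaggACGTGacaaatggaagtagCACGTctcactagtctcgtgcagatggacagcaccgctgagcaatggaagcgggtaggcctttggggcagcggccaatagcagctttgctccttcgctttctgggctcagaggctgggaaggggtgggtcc
Ldha, chr7:46845554-46845803: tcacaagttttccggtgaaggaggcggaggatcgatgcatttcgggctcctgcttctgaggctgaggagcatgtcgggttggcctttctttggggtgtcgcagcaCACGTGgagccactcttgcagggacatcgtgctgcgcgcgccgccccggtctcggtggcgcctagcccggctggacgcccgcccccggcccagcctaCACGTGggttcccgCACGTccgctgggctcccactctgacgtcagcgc

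The 12 genes with a site (Slc2a1, Hk2, Hk3, Pfkm, Pfkfb3, Aldoa, Pgk1, Pgam1, Pkm, Ldha, Slc16a1 and Slc16a3) had 7 fold changes below 0 and 5 above, with a median log2 fold change of -0.02. The 18 tested genes with a window and no ACGTG site had 16 below 0 and 2 above, with a median of -0.08. In LPS+3A2 replicate 3 alone their median positions were -0.05 and -0.13. The split was looked at after the values were known and has no test, and a match of letters is not evidence of binding.

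Genes next to the pathway were tested in the same fit, 51 of 79 listed, and 0 were called by edgeR, DESeq2 or limma-voom over all genes. At an unadjusted p under 0.05 there were 3 higher (3.43% of all genes tested) and 2 lower (3.09%). Their median log2 fold change was 0.03, with 29 above 0 and 22 below. Among 14 tested enzymes and transporters of glycolysis outside the 32 genes, 8 lay above 0 and 6 below. Slc2a6, a hexose transporter of the lysosome induced by LPS, had the smallest p, with 48.6, 50.8 and 50.8 CPM with LPS and 41.2, 42.9 and 38.6 CPM with 3A2. All 3 libraries with 3A2 were below those with LPS, at 0.817-fold (95% interval 0.716 to 0.933; edgeR adjusted p = 0.719). Pfkfb1, the liver form, measured 3.22, 3.75 and 4.30 CPM with LPS and 2.27, 2.00 and 2.84 CPM with 3A2; this was 0.632-fold (95% interval 0.409 to 0.976; edgeR adjusted p = 0.748). Bsg, the chaperone of the lactate transporters, stood at 1.00-fold (0.914 to 1.09), with a direction that changed between scalings.

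Entry of pyruvate into mitochondria lay above 0 in 10 of 13 tested genes, their median log2 fold change being 0.09, and none was called. Over all genes tested, 49.6% lay below 0. Without LPS+3A2 replicate 3, 8 of the 13 lay above 0, with a median of 0.05. Without LPS+3A2 replicate 2 it was 9 of 13 (median 0.13), and with the GC correction 10 of 13 (median 0.07). Pdpr, the regulatory subunit of pyruvate dehydrogenase phosphatase, measured 32.4, 33.2 and 35.3 CPM with LPS and 39.4, 36.6 and 42.9 CPM with 3A2, a difference of 1.18-fold (95% interval 1.02 to 1.37; edgeR adjusted p = 0.743). Dld, the dehydrogenase subunit shared by several complexes, stood at 1.06-fold (0.937 to 1.21), with a log2 fold change of -0.01 without LPS+3A2 replicate 3. Of 10 genes that feed sugars into or out of the pentose pathway 5 lay above 0 and 5 below. G6pc3, a glucose phosphatase of the endoplasmic reticulum, measured 21.1, 24.1 and 25.2 CPM with LPS and 26.3, 28.6 and 29.6 CPM with 3A2, a difference of 1.2-fold (95% interval 1.01 to 1.42; edgeR adjusted p = 0.748), and Pgm1, a phosphoglucomutase, stood at 0.964-fold (0.870 to 1.07). Of 14 regulators, 6 lay above 0 and 8 below. Egln3, a prolyl hydroxylase that marks HIF for breakdown and is itself a HIF target, measured 113, 123 and 123 CPM with LPS and 129.7, 142 and 137 CPM with 3A2, so that all 3 libraries with 3A2 were higher, at 1.14-fold (95% interval 1.03 to 1.26; edgeR adjusted p = 0.719). Txnip, which limits glucose uptake, measured 801, 799.5 and 833 CPM with LPS and 796, 812 and 821 CPM with 3A2, or 0.998-fold (0.920 to 1.08).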

How the data were processed

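Total RNA was depleted of ribosomal RNA and read as strand-specific paired-end libraries on a NovaSeq X, per the labels' protocols. The authors deposited raw read counts per gene symbol, 1 column per library. HISAT2 and edgeR are named without version or role, with the human build GRCh38, per the submitters' processing notes; which program counted reads, with which annotation and strand setting, is not given in the sources used here. Symbols are those of mouse (39282 of 40773 match RefSeq GRCm38.p6), and 0 entries named no gene. Entries beside 3 genes in 3 unnamed columns were not used.

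The labels gave each library's group and replicate number. After filterByExpr and TMM scaling, the 11498 genes left were compared between LPS+3A2 and LPS in R 4.3.3 with edgeR 4.0.16 (robust quasi-likelihood F test, two-sided), with Benjamini-Hochberg adjustment and a threshold of 0.05. Replicates varied with a biological coefficient of variation of 0.0768, and log2 fold changes had a median standard error of 0.119. Intervals are at the 95% level. Replicates did not agree within sampling noise (chi-square per degree of freedom 3.46 to 23.5). Lengths, GC content and copies came from GENCODE M21, by the longest transcript with a RefSeq mRNA and blastn 2.17.0. Genes named with values in every library were those with an unadjusted p under 0.05 and, in each role group or list, those with the smallest p and the highest CPM. Bsg, Dld and Pgm1, the highest in CPM of their lists, are given by fold change and interval only. Further members are described beside the named genes. The members and lists were chosen with earlier results of these data known. Alternatives were other scalings and filters, DESeq2 1.42.0, limma-voom (limma 3.58.1), the replicate number as a block, leaving out each library and, added after seeing the data, a GC correction.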

Additional observations from a re-analysis of the deposited data

How the results depend on the processing

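The number of the 32 genes called stayed at 0 under all 14 alternatives, and that of the related genes did too. The count over all genes tested moved from 0 to 16 without a filter on low counts, to 1 with the replicate block and to 20 with the GC correction, and ran from 0 to 25 as each library was left out, with 25 without LPS+3A2 replicate 2. The cause was not tested. Same-numbered libraries did not deviate together (correlations -0.0065, 0.032 and -0.16), and the block changed no call among the 32 genes. Members below 0 ran from 18 to 25 and their median log2 fold change from -0.11 to -0.0034 as each library was left out.

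Directions near 0 were not stable. With the GC correction the log2 fold change turned to 0.019 for Aldoa, 0.0077 for Aldoc, 0.025 for Eno1, 0.023 for Slc16a3, 0.055 for Pgls, 0.059 for Bsg and -0.0044 for Dld. Bsg also turned to 0.00088 with DESeq2 size factors, 0.0026 with totals without mitochondrial and abundant genes, 0.0032 without a filter and 0.00096 with DESeq2, and Txnip to 0.00054 without a filter. Leaving out single libraries gave log2 ranges that crossed 0 for Slc2a3 (-0.12 to 0.021), Pfkp (-0.078 to 0.016), Pfkfb3 (-0.037 to 0.073), Aldoa (-0.11 to 0.047), Aldoc (-0.034 to 0.026), Tpi1 (-0.090 to 0.00085), Pgk1 (-0.048 to 0.011), Eno1 (-0.083 to 0.027), Ldha (-0.012 to 0.012), Slc16a1 (-0.023 to 0.16), Slc16a3 (-0.076 to 0.022), G6pdx (-0.0090 to 0.036), Pgd (-0.12 to 0.018), Bsg (-0.049 to 0.038), Dld (-0.014 to 0.16) and Txnip (-0.014 to 0.016). As each library was left out, the difference between the groups in count share ran from -0.108 to 0.0273 percentage points for Aldoa (-0.038 with all libraries) and from -3.35 to 0.627 for Slc16a3 (-1.60). Apart from these genes, every tested gene of the 32 kept its direction in all 14 alternatives. Small differences are limited by 3 libraries per group and 6060732 to 7432553 counts each.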
